A study of Mus musculus with 9 samples.

Results

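The T cell receptor signalling machinery described here is a list of 42 genes for the proteins that carry a signal inward from the receptor: kinases, adaptors, enzymes, the NFAT and NF-kB transcription factors, and the phosphatases, ubiquitin ligases and lipid kinases that restrain them. The CD3 and CD8 chains are not on the list. Members were found by gene symbol in the deposited expression table, where all 42 had a row among 23366 symbols, and all 42 were among the 10374 genes whose FPKM averaged 1 or more over the libraries (FPKM is a fragment count scaled to transcript length and library depth). The table covers CD8+ T cells from tumours of C57BL/6 mice carrying B16F10, a transplantable melanoma, as 9 bulk RNA-seq libraries of an adapted SMART-Seq 2 protocol. The WT group has 5 libraries from wild type mice. The IL27ra KO group has 4 libraries from mice lacking Il27ra, the chain of the interleukin 27 receptor that gives it its specificity. No treatment or time point separates the groups, and the ages of the mice, the cell type in which Il27ra acts and the pooling of animals are not given in the labels. Whether each library stands for its own mouse is not stated, so the p-values below describe library-to-library spread, which may be technical.

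When a T cell receptor binds its antigen, the kinase LCK phosphorylates the receptor's CD3 tails, and ZAP-70 docks there and phosphorylates the adaptors LAT and SLP-76. These adaptors gather phospholipase C gamma 1, VAV1 and RAS activators, and the resulting calcium and diacylglycerol open the NFAT, RAS and NF-kB branches. Phosphatases, CBL ubiquitin ligases, the STS proteins and diacylglycerol kinases limit the signal, and in CD8 T cells of tumours these brakes are studied for their part in weakened responses.

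The single comparison of the design asks what the loss of the interleukin 27 receptor changes in CD8+ T cells of the tumour. Several facts of the libraries bear on it. The low FPKM values implied 1710000 to 4030000 fragments per WT library and 2490000 to 3860000 per IL27ra KO library. These are sizes after the deposited scaling between libraries, and the fragments sequenced can differ. Il27ra had 5.14 to 25.7 FPKM in WT and 4.09 to 7.80 FPKM in IL27ra KO (-1.10, SE 0.34; limma, adjusted p = 0.0996), and the library labelled WT replicate 2, at 5.14 FPKM, lay inside the IL27ra KO range. The labels do not give the deleted part of the gene, so how far its level checks the labels is not known, and groups are used as labelled. Cd3e and Cd8a, which mark the labelled cell type, were detected in every library, with Cd8a at 63.4 to 115 FPKM in WT and 25.2 to 70.7 FPKM in IL27ra KO. A list of 13 T cell genes with no member in it (CD3 and CD8 chains, Cd2, Cd5 and others) summed to 936 to 1483 FPKM in WT and to 416, 586, 507 and 1099 FPKM in IL27ra KO replicates 1 to 4. Of 18 macrophage and monocyte genes, 17 were higher in IL27ra KO (limma, adjusted p under 0.05) and 0 lower, and the list summed to 306 to 602 FPKM in WT against 1924, 1607, 1769 and 1041 FPKM in IL27ra KO replicates 1 to 4. Csf1r, the macrophage growth factor receptor, had 0.22 to 4.01 FPKM in WT and 45.0, 27.4, 49.0 and 10.99 FPKM in IL27ra KO. Dendritic cell genes summed to 16.3 to 317 FPKM in WT and 295 to 1351 FPKM in IL27ra KO. Most of that sum was H2-Ab1 and Cd74, at 129 to 599 and 148 to 732 FPKM in IL27ra KO. These genes, Itgax and Cd209a were higher (limma, adjusted p under 0.05), and Zbtb46 was not (-0.25; limma, adjusted p = 0.811). Flt3, Xcr1, Clec9a and Siglech averaged below 1 FPKM and were not tested. Melanoma genes summed to 377 to 1200 FPKM in WT and 553 to 1302 FPKM in IL27ra KO. Marker genes of B cells summed to at most 4.98 FPKM in any library and Ms4a1 was at 0 in all 9. In bulk libraries, fewer T cells and less RNA of a gene per T cell cannot be told apart.

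Most of the machinery did not pass the test between genotypes, and the members that did were all lower in IL27ra KO. Cblb, which encodes an E3 ubiquitin ligase that raises the threshold for T cell activation, Nfatc1, which encodes an NFAT factor, and Ubash3b, which encodes the phosphatase STS-1, fell, 0 members rose and 39 did not pass (limma, adjusted p under 0.05). The 3 lower members are 7.14% of the 42, beside 1.11% lower, 3.13% higher and 4.24% in either direction among all 10374 genes tested. At an unadjusted p under 0.05 (limma), 8 members were lower, beside 5.74% of all genes, and 1 was higher, beside 9.33%. By level, Tnfaip3, Nfkbia, Ptprc and Lck had the highest means over the 9 libraries (140, 127, 126 and 120 FPKM) and Sos1 the lowest (1.75 FPKM). The 12 members that are mostly made by T lineage cells, such as Lck, Zap70 and Lat, had a median difference of -0.32 with 0 past the threshold, and the other 30 a median of -0.12 with 3. Over the 42 members 27 differences were negative and 15 positive, and the median was -0.14 on the log2(FPKM + 1) scale, beside 0.02 for all genes tested. The 3 calls depended on the libraries and their scaling: 0 members were lower without IL27ra KO replicate 1, 2 or 3, 1 without WT replicate 3 or 5, and 6 without IL27ra KO replicate 4. Without WT replicate 2, the library with low Il27ra, Cblb and Nfatc1 passed (-1.40 and -0.98; limma, adjusted p = 0.0048 and 0.0197) and Ubash3b did not. After each library was rescaled to the same total, 0 members were lower and 1, Trat1, was higher, where the median of all genes moved from 0.02 to 0.29 and 525 genes were higher (5.06%) and 65 lower (0.627%), against 325 and 115 as deposited. Rn45s, a ribosomal RNA precursor, made up 53.8% and 50.8% of the total in WT replicates 3 and 4 and 23.9% to 30.0% in the other 7 libraries. Without Rn45s, the total was 301717 FPKM in WT replicate 2 and 185046 to 213183 FPKM in every other library. Equal totals without Rn45s therefore rescale WT replicate 2 the most. With Rn45s left out of the totals, an alternative added after seeing the data, the median of all genes was 0.07 and Cblb, Nfatc1 and Ubash3b were at -1.19, -0.88 and -0.77, all short of the threshold (limma, adjusted p = 0.0630, 0.0917 and 0.0635). Zap70 was then the 1 member that passed, as lower, beside 0.954% of all genes lower and 2.81% higher. With the mean macrophage level of each library as a covariate, 0 members passed, and Cblb, Nfatc1 and Ubash3b were at -0.01, -0.41 and -1.26 (limma, adjusted p = 0.996, 0.765 and 0.418). That level does not overlap between the groups, so it and the genotype cannot be told apart.

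**Figure D1:**
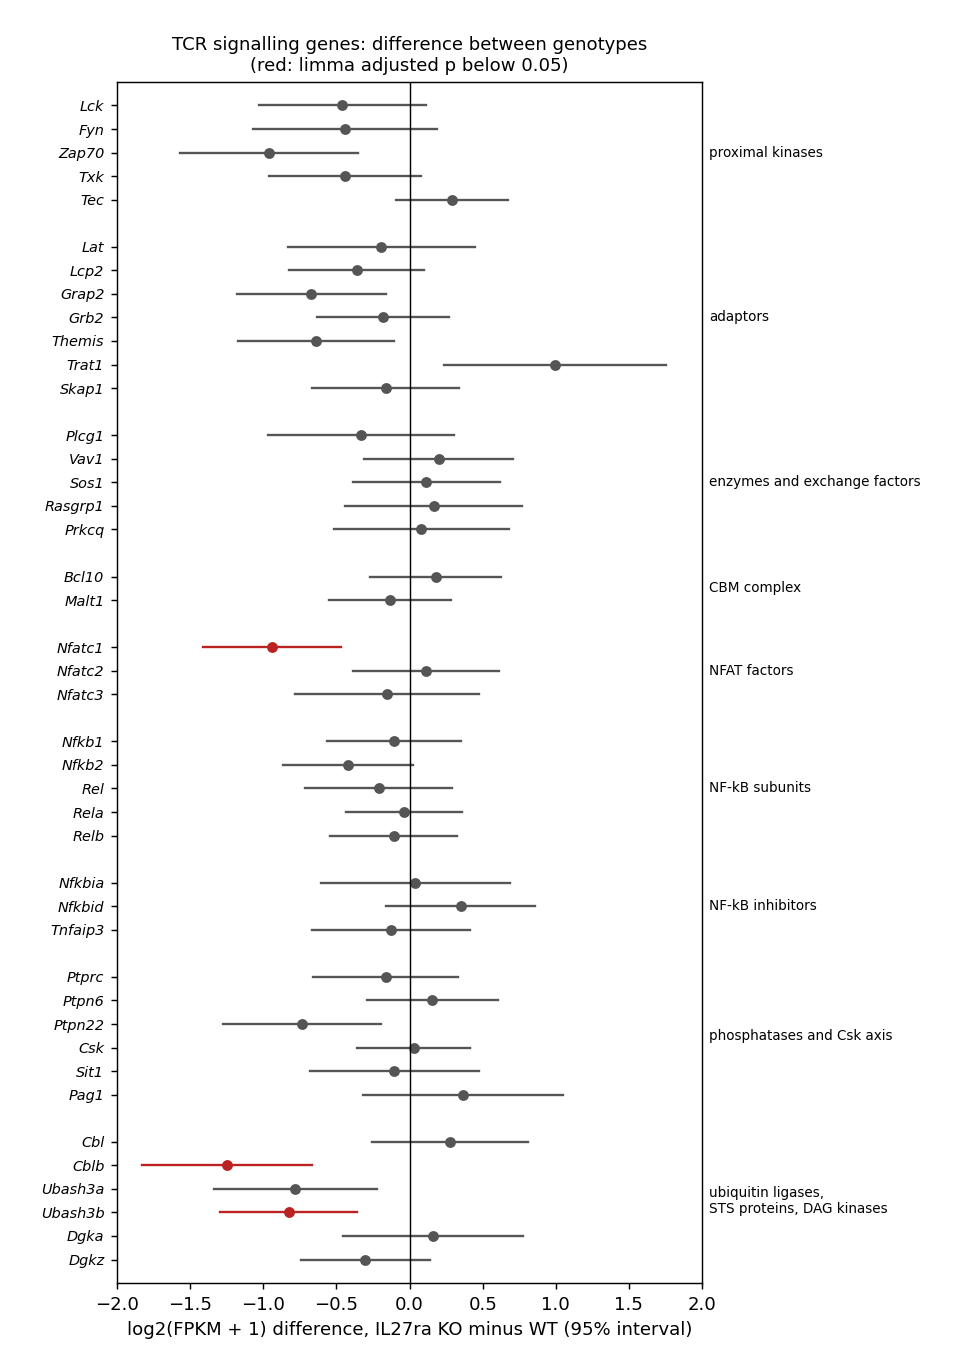
Difference of each of the 42 members between IL27ra KO and WT on the log2(FPKM + 1) scale (x axis), with its 95% limma interval, grouped by role; red marks limma adjusted p under 0.05. Cblb (-1.25), Nfatc1 (-0.94) and Ubash3b (-0.83) lie left of 0, and Trat1 (1.00) is the member farthest to the right.

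The ubiquitin ligases, STS proteins and diacylglycerol kinases, which limit the signal, held 2 of the 3 calls, with a median difference of -0.54 over their 6 genes. Cblb had 38.6, 27.0, 59.6, 42.4 and 50.3 FPKM in WT replicates 1 to 5 and 12.2, 16.9, 14.9 and 28.0 FPKM in IL27ra KO replicates 1 to 4. IL27ra KO replicates 1, 2 and 3 were below every WT library, and replicate 4 was just above WT replicate 2, so the groups overlapped by that pair. The mean fell from 43.6 ± 12.3 (SD, n = 5) to 18 ± 6.94 FPKM (SD, n = 4), a log2 change of -1.25 (SE 0.27; limma, adjusted p = 0.0170). With a library removed in turn, Cblb passed 6 of 9 times and missed the threshold without IL27ra KO replicate 1, 2 or 3 (limma, adjusted p up to 0.0795). Cbl, the related ligase c-CBL, had 11.9, 5.11, 14.0, 11.9 and 12.9 FPKM in WT and 12.99, 12.7, 12.5 and 14.1 FPKM in IL27ra KO, so WT replicate 2 alone was low and the other libraries of both groups lay together. Its difference was 0.28 (95% interval -0.26 to 0.81; limma, adjusted p = 0.680).

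The STS proteins, which share a phosphatase fold and dampen signalling by ZAP-70 and SYK kinases, were low in most IL27ra KO libraries. Ubash3b had 11.8, 15.3, 11.3, 7.75 and 17.0 FPKM in WT and 5.67, 6.95, 6.67 and 6.57 FPKM in IL27ra KO. All 4 IL27ra KO libraries, replicate 4 included, were below the lowest WT library, with means of 12.6 ± 3.63 (SD, n = 5) and 6.47 ± 0.55 FPKM (SD, n = 4). Of the 42 members, 2 had IL27ra KO values wholly below WT and 0 wholly above, beside 2.47% and 4.26% of all genes tested, or 6.73% in either direction. The Ubash3b change was -0.83 (SE 0.22; limma, adjusted p = 0.0493), close to the threshold, and Ubash3b passed 1 of 9 times with a library removed in turn, without WT replicate 4 (limma, adjusted p up to 0.175 without IL27ra KO replicate 1). Pseudocounts of 0.1 and 5 and the fit without a filter also ended it (limma adjusted p = 0.0552, 0.0524 and 0.0848). Ubash3a, which encodes STS-2, had 21.1, 25.7, 36.7, 33.9 and 31.6 FPKM in WT and 14.1, 13.7, 13.2 and 29.6 FPKM in IL27ra KO, where replicate 4 stood in the middle of the WT range. The Ubash3a difference was -0.78 (SE 0.26; limma, adjusted p = 0.131), short of the threshold.

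Promoter sequence is printed for Cblb and Ubash3b because they are called members, from RefSeq's promoter table (GRCm38.p6), which 36 of the 42 members matched by symbol. Nfatc1, Nfkb1, Relb, Malt1, Skap1 and Pag1 were the others. Each run is the 250 bases before a listed transcription start, 5′ to 3′ on the gene's strand, with the NFAT core motif GGAAA in capitals on either strand, where it reads GGAAA or TTTCC. The Cblb window is chr16:52031299-52031548 (plus strand) and holds 2 matches, and the Ubash3b window is chr9:41158063-41158312 (minus strand), before the more upstream of 2 listed starts, and holds 3.
Cblb: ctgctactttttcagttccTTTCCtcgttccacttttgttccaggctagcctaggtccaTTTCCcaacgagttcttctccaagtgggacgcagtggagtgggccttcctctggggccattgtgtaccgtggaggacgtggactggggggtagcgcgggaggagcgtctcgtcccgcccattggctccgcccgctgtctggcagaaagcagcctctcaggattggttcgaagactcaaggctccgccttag
Ubash3b: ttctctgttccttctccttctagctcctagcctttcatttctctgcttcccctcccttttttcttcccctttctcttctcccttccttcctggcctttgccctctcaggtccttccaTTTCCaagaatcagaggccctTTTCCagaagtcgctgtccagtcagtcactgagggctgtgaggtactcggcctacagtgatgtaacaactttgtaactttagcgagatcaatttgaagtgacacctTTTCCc
Matches to so short a motif are common: 55.6% of all 32851 listed windows of this length hold one, and 41 of the 57 windows of members do (71.9%). The deposited build is mm9, and these letters come from RefSeq's own build by gene symbol only.

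The diacylglycerol kinases, which remove the lipid that activates RASGRP1 and protein kinase C theta, did not pass. Dgka, the more abundant, had 60.2, 25.2, 70.6, 57.4 and 40.4 FPKM in WT and 39.4, 55.0, 54.4 and 70.0 FPKM in IL27ra KO, with full overlap of the groups (0.16, 95% interval -0.46 to 0.78; limma, adjusted p = 0.866). Dgkz had means of 9.71 ± 1.54 (SD, n = 5) and 7.81 ± 2.13 FPKM (SD, n = 4).

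**Figure D2:**
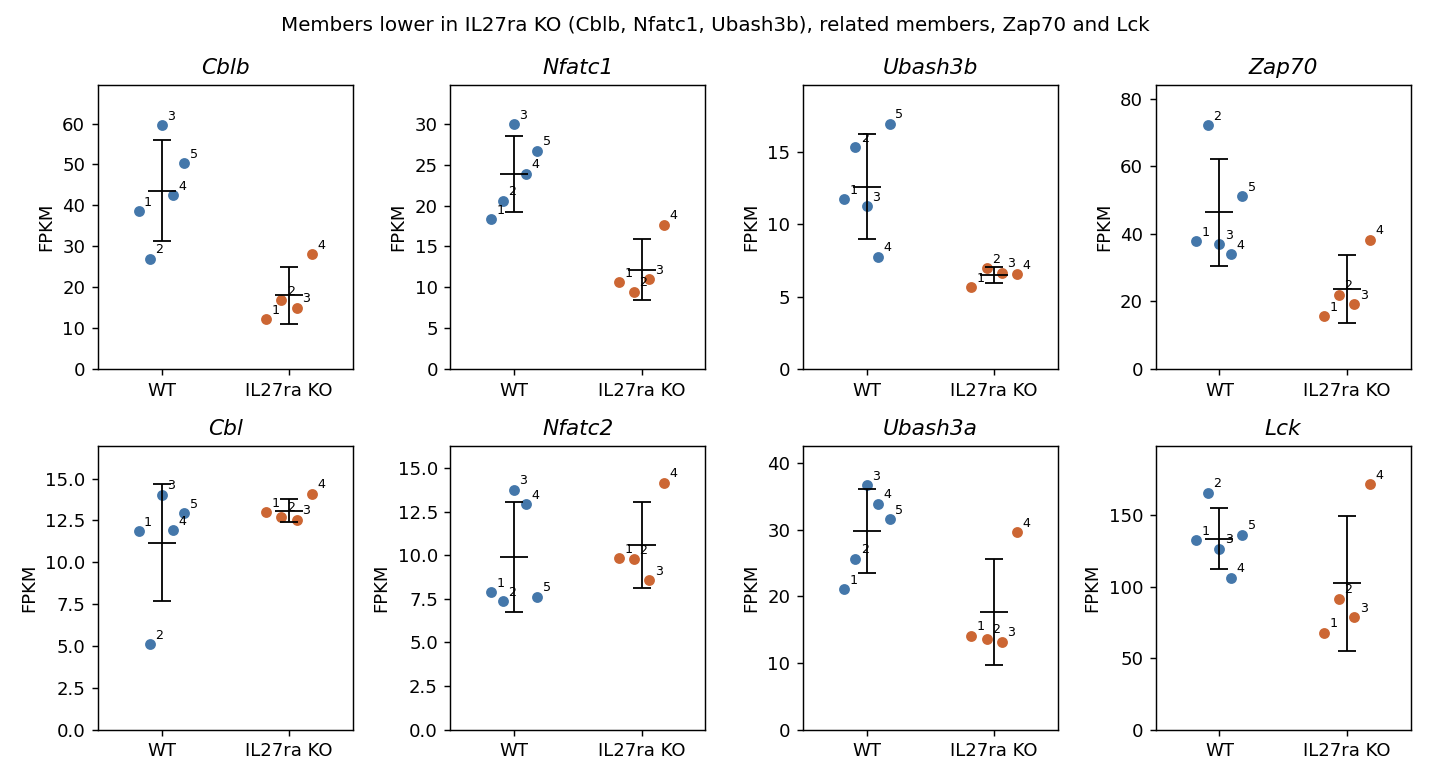
FPKM (y axis, from 0) in each library of WT and IL27ra KO, with replicate numbers beside the points and the group mean ± SD as bars, for Cblb, Nfatc1, Ubash3b and Zap70 (top) and Cbl, Nfatc2, Ubash3a and Lck (bottom). Ubash3b lies between 5.67 and 6.95 FPKM in all 4 IL27ra KO libraries, whereas IL27ra KO replicate 4 is the highest of the 9 libraries for Cbl, Nfatc2 and Lck.

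Among the NFAT factors, which calcineurin releases into the nucleus when calcium rises, 1 of 3 fell. Nfatc1 had 18.3, 20.6, 30.0, 23.9 and 26.7 FPKM in WT and 10.6, 9.44, 10.95 and 17.7 FPKM in IL27ra KO. The groups did not overlap, although IL27ra KO replicate 4 came within 1 FPKM of WT replicate 1. The mean went from 23.9 ± 4.65 (SD, n = 5) to 12.2 ± 3.72 FPKM (SD, n = 4), a log2 change of -0.94 (SE 0.22; limma, adjusted p = 0.0266), and with a library removed in turn it missed the threshold 5 of 9 times, when the library removed was any of IL27ra KO replicates 1 to 3 or of WT replicates 3 and 5 (limma, adjusted p up to 0.116, without IL27ra KO replicate 2). Nfatc2 had 7.88, 7.37, 13.8, 12.9 and 7.63 FPKM in WT and 9.84, 9.78, 8.58 and 14.2 FPKM in IL27ra KO, all within the WT range except the highest value, that of IL27ra KO replicate 4. It differed by 0.11 (95% interval -0.39 to 0.61; limma, adjusted p = 0.887). Nfatc3 had 16.3, 10.3, 24.6, 25.9 and 16.3 FPKM in WT and 13, 12.8, 13.5 and 27.6 FPKM in IL27ra KO, with replicate 4 far above the other IL27ra KO libraries and a difference of -0.16 (limma, adjusted p = 0.872). Gene-level values do not separate the short and long isoforms of Nfatc1.

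None of the 5 proximal kinases passed (limma, adjusted p under 0.05; at an unadjusted p under 0.05, Zap70 alone did), and their median difference was -0.44. Lck, the kinase that starts the cascade, was the most abundant of them, with 133, 166, 126, 106 and 136 FPKM in WT and 67.8, 91.5, 78.7 and 171 FPKM in IL27ra KO. IL27ra KO replicates 1 to 3 lay below every WT library and replicate 4 above every one, and the difference was -0.46 (95% interval -1.03 to 0.11; limma, adjusted p = 0.467). Zap70 had 37.8, 72.1, 36.9, 34.0 and 51.2 FPKM in WT and 15.6, 22.0, 19.1 and 38.3 FPKM in IL27ra KO. Replicates 1, 2 and 3 of IL27ra KO were again the lowest, and replicate 4 was inside the WT range. The Zap70 change was -0.96 (SE 0.28; limma, adjusted p = 0.0821), and it passed in 5 of 22 alternatives. Among these were quantile normalization (-0.92, limma adjusted p = 0.0467), weights for library quality (-0.98, limma adjusted p = 0.0077) and equal totals that leave out Rn45s (-0.89, limma adjusted p = 0.0461). With a library removed in turn it passed 1 of 9 times, without IL27ra KO replicate 4 (-1.21, limma adjusted p = 0.0160). The limma adjusted p reached 0.300 without IL27ra KO replicate 1 and 0.634 with the macrophage covariate. Fyn, a SRC family kinase that overlaps with LCK in function, had 11.4 to 21.3 FPKM in WT and 8.11, 8.75, 6.72 and 21.2 FPKM in IL27ra KO (-0.44; limma, adjusted p = 0.545). The TEC family kinases activate phospholipase C gamma 1. Of these, Txk spanned 10.54 to 23.3 FPKM in WT and 9.42 to 14.6 FPKM in IL27ra KO (-0.44; limma, adjusted p = 0.437), and Tec, with 2.43 to 2.80 FPKM in WT and 2.72 to 4.26 FPKM in IL27ra KO, differed by 0.29 (limma, adjusted p = 0.501).

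The 7 adaptors did not pass either (limma, adjusted p under 0.05; 3 had an unadjusted p under 0.05), and 6 of the 7 differences were negative. Lat, the membrane scaffold on which the signalling complex assembles, had 66.9, 96.7, 46.7, 55.3 and 63.5 FPKM in WT and 37.3, 53.6, 45.6 and 106 FPKM in IL27ra KO (-0.19, 95% interval -0.83 to 0.45; limma, adjusted p = 0.841). Lcp2, which encodes SLP-76, had 29.0 to 39.8 FPKM in WT and 21.1, 23.4, 22.9 and 39.6 FPKM in IL27ra KO (-0.36; limma, adjusted p = 0.481). For both genes IL27ra KO replicate 4 was as high as the highest WT libraries while replicates 1 and 3 were below all of them. Grap2, which encodes GADS, the link between LAT and SLP-76, had means of 9.27 ± 2.07 (SD, n = 5) and 5.59 ± 2.28 FPKM (SD, n = 4), a difference of -0.67 (limma, adjusted p = 0.163). Themis, which sets signal strength during thymic selection, had 30.1, 28.8, 52.3, 43.0 and 38.3 FPKM in WT and 17.8, 21.6, 22.0 and 37.4 FPKM in IL27ra KO, where replicate 4 alone reached the WT range (-0.64; limma, adjusted p = 0.212). Grb2, the adaptor that brings SOS1 to the membrane, and Skap1, which works in integrin activation, differed by -0.18 and -0.16 (limma, adjusted p = 0.767 and 0.826).

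Among the adaptors Trat1 was the exception in sign. It encodes TRIM, a transmembrane adaptor that associates with the receptor complex, and it had 4.22, 2.58, 3.34, 6.85 and 1.06 FPKM in WT and 4.54, 8.99, 5.75 and 12.2 FPKM in IL27ra KO. IL27ra KO replicates 2 and 4 were above every WT library, and replicates 1 and 3 were below WT replicate 4. The difference of 1.00 (SE 0.35) was the largest positive one of the 42 and did not pass (limma, adjusted p = 0.165). It passed when each library was rescaled to the same total (1.28, limma adjusted p = 0.0290) and did not when Rn45s was left out of the totals (1.04, limma adjusted p = 0.219).

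Of the enzymes and exchange factors 0 of 5 passed (limma, adjusted p under 0.05; 0 at an unadjusted p under 0.05), with a median difference of 0.12. Plcg1, which encodes phospholipase C gamma 1, the source of calcium and diacylglycerol signals, had 25.3, 16.5, 48.0, 44.0 and 29.4 FPKM in WT and 22.2, 20.5, 20.7 and 35.4 FPKM in IL27ra KO. Every IL27ra KO value fell within the wide WT range (-0.33, 95% interval -0.97 to 0.31; limma, adjusted p = 0.679). Prkcq, the protein kinase C that leads to NF-kB, had 29.9, 11.8, 27.7, 21.4 and 22.1 FPKM in WT and 15.6, 24.2, 21.7 and 33.4 FPKM in IL27ra KO (0.08, 95% interval -0.52 to 0.68; limma, adjusted p = 0.935). Rasgrp1 and Sos1, the exchange factors that load RAS, differed by 0.17 and 0.12, and Vav1, which activates RAC, by 0.20 (limma, adjusted p = 0.858, 0.883 and 0.778). WT replicate 2 was the lowest of the 9 libraries for all 5 of these genes, with 16.5 FPKM of Plcg1, 7.35 of Vav1, 0.84 of Sos1, 7.33 of Rasgrp1 and 11.8 of Prkcq. Of the CBM complex, which connects protein kinase C theta to NF-kB, Bcl10 had 16.4, 17.5, 10.7, 9.20 and 12.95 FPKM in WT and 13.5, 15.5, 14.5 and 16.03 FPKM in IL27ra KO (0.18; limma, adjusted p = 0.767). Malt1, its protease partner, had 16.2, 11.5, 13.9, 14.1 and 19.0 FPKM in WT and 11.3, 15.3, 12.1 and 15.2 FPKM in IL27ra KO (-0.13; limma, adjusted p = 0.830), and the groups of both genes overlapped.

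In the NF-kB branch 0 of 8 members passed (limma, adjusted p under 0.05; 0 at an unadjusted p under 0.05), which does not show that they were equal. Rel, the c-REL subunit prominent in activated T cells, had 23.9, 12.6, 27.4, 20.8 and 28.2 FPKM in WT and 16.1, 19.8, 21.9 and 17.3 FPKM in IL27ra KO (-0.21, 95% interval -0.72 to 0.29; limma, adjusted p = 0.753). Nfkb2, the p100 subunit of the alternative pathway, had 14.8, 19.6, 16.9, 12.02 and 22.8 FPKM in WT and 12.4, 10.4, 12.4 and 14.4 FPKM in IL27ra KO, the lowest difference of the branch (-0.42, 95% interval -0.86 to 0.03; limma, adjusted p = 0.367). Nfkb1, Rela and Relb, which encode p105, p65 and RELB, differed by -0.11, -0.04 and -0.11 (limma, adjusted p = 0.883, 0.954 and 0.871). Of the 3 inhibitors, Tnfaip3 and Nfkbia had the highest levels of the 42 members and Nfkbid ranked 29. Tnfaip3, the ubiquitin-editing enzyme A20, had the highest mean FPKM of all 42, with 180, 91.9, 161, 137 and 158 FPKM in WT and 99.4, 122, 124 and 187 FPKM in IL27ra KO (-0.13; limma, adjusted p = 0.878). Nfkbia, which encodes the inhibitor I kappa B alpha, had 117, 250.2, 88.9, 78.6 and 117 FPKM in WT and 104, 122, 116 and 153 FPKM in IL27ra KO, and WT replicate 2 alone was far above the rest (0.04, 95% interval -0.61 to 0.69; limma, adjusted p = 0.973). Nfkbid, which encodes I kappa B NS, had 7 to 12.7 FPKM in WT and 11.7, 10.2, 15.1 and 21.2 FPKM in IL27ra KO, where replicates 3 and 4 were above every WT library (0.35; limma, adjusted p = 0.562).

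Several NF-kB genes are known targets of the factor itself, and windows of 2 of them, Nfkbia and Nfkb2, are shown for that reason. The runs are the 250 bases before a RefSeq start, with matches to the NF-kB consensus of 10 bases on either strand in capitals, and overlapping matches merge. The Nfkbia window is chr12:55492648-55492897 (minus strand) and the Nfkb2 window, before the start with the most matches of 3 listed, is chr19:46304487-46304736 (plus strand), in GRCm38.p6.
Nfkbia: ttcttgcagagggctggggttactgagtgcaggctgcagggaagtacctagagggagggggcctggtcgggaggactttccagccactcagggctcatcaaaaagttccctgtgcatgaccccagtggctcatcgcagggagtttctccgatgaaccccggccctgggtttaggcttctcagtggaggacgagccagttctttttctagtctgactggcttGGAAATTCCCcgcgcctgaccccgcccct
Nfkb2: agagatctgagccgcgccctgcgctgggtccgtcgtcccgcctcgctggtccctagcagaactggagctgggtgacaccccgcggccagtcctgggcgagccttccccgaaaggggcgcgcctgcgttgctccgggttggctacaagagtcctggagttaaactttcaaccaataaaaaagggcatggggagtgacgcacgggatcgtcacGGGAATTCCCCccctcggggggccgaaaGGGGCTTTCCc
Nfkbia holds 1 match and this Nfkb2 window 3. Of the 36 members with a window, 6 hold a match before at least 1 start, Nfkb2, Nfkbia, Nfkbid, Rel, Tnfaip3 and Bcl10, and 14% of the 57 member windows do, beside 7.25% of all windows. A match is a run of letters and was not tested as a binding site.

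Of the phosphatases and the CSK axis, which set the activity of LCK, 0 of 6 passed (limma, adjusted p under 0.05), and Ptpn22 had an unadjusted p under 0.05. Ptprc, which encodes CD45, the phosphatase that primes LCK and marks all leukocytes, had 146, 124, 130, 119 and 132 FPKM in WT and 99.1, 103, 94.3 and 187 FPKM in IL27ra KO. Replicates 1 to 3 of IL27ra KO were below every WT library and replicate 4 above, with a difference of -0.16 (95% interval -0.66 to 0.33; limma, adjusted p = 0.819). Ptpn22, the phosphatase that acts on LCK and ZAP-70, had 86.7, 65.9, 87.2, 80.6 and 93.0 FPKM in WT and 36.9, 48.9, 37.3 and 84.6 FPKM in IL27ra KO (-0.74, SE 0.25; limma, adjusted p = 0.145). Csk, the kinase that holds LCK inactive, was nearly level, with 18.8 to 24.5 FPKM in WT and 17.7 to 25.4 FPKM in IL27ra KO (0.03, 95% interval -0.36 to 0.42; limma, adjusted p = 0.964). Ptpn6, which encodes SHP-1 and is also abundant in myeloid cells, had means of 35.7 ± 8.04 (SD, n = 5) and 39.4 ± 5.81 FPKM (SD, n = 4). Sit1 and Pag1, transmembrane adaptors that recruit SHP-2 and CSK, differed by -0.10 and 0.37 (limma, adjusted p = 0.913 and 0.661).

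Read library by library, IL27ra KO replicate 4 stood apart from the other IL27ra KO libraries. Of the 42 members, 35, 32 and 30 were below the WT median in IL27ra KO replicates 1, 2 and 3, but 9 were in replicate 4. Members below every WT library numbered 20, 16 and 18 in replicates 1 to 3 and 2 in replicate 4, and members above every WT library numbered 1, 1, 2 and 18. WT libraries also departed from each other. Set against the other WT libraries, WT replicates 1 to 5 had 4, 17, 6, 12 and 3 members below all of them. Members above all of them numbered 6, 11, 12, 4 and 9. Shares over all genes were not counted for single libraries. In IL27ra KO replicates 1 to 3 alike, 13 members were below every WT library: Lck, Fyn, Zap70, Lcp2, Grap2, Themis, Nfatc1, Ptprc, Ptpn22, Cblb, Ubash3a, Ubash3b and Dgkz, beside 6.2% of all genes tested. In replicate 4, 2 of these 13, Nfatc1 and Ubash3b, were below the WT range too. On the log2(FPKM + 1) scale the T cell genes averaged 4.71, 5.15, 4.96 and 6.01 across the IL27ra KO libraries, in replicate order, against 5.72 to 6.22 in WT, so replicate 4 was also the IL27ra KO library whose T cell gene level lay within the WT range, and the macrophage level was 5.30, 4.98, 5.42 and 4.02 in the same libraries and 1.58 to 3.06 in WT. The part of either level in the member values was not tested. Without IL27ra KO replicate 4, the members that passed as lower were Cblb, Grap2, Nfatc1, Ptpn22, Ubash3a and Zap70 (limma, adjusted p under 0.05), beside 1.79% lower and 4.36% higher of all genes in that fit. With WT replicate 2 left out as well, 9 passed, with Fyn, Lck and Themis added, beside 3.03% lower and 5.57% higher of all genes, an alternative chosen after seeing the data.

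**Figure D3:**
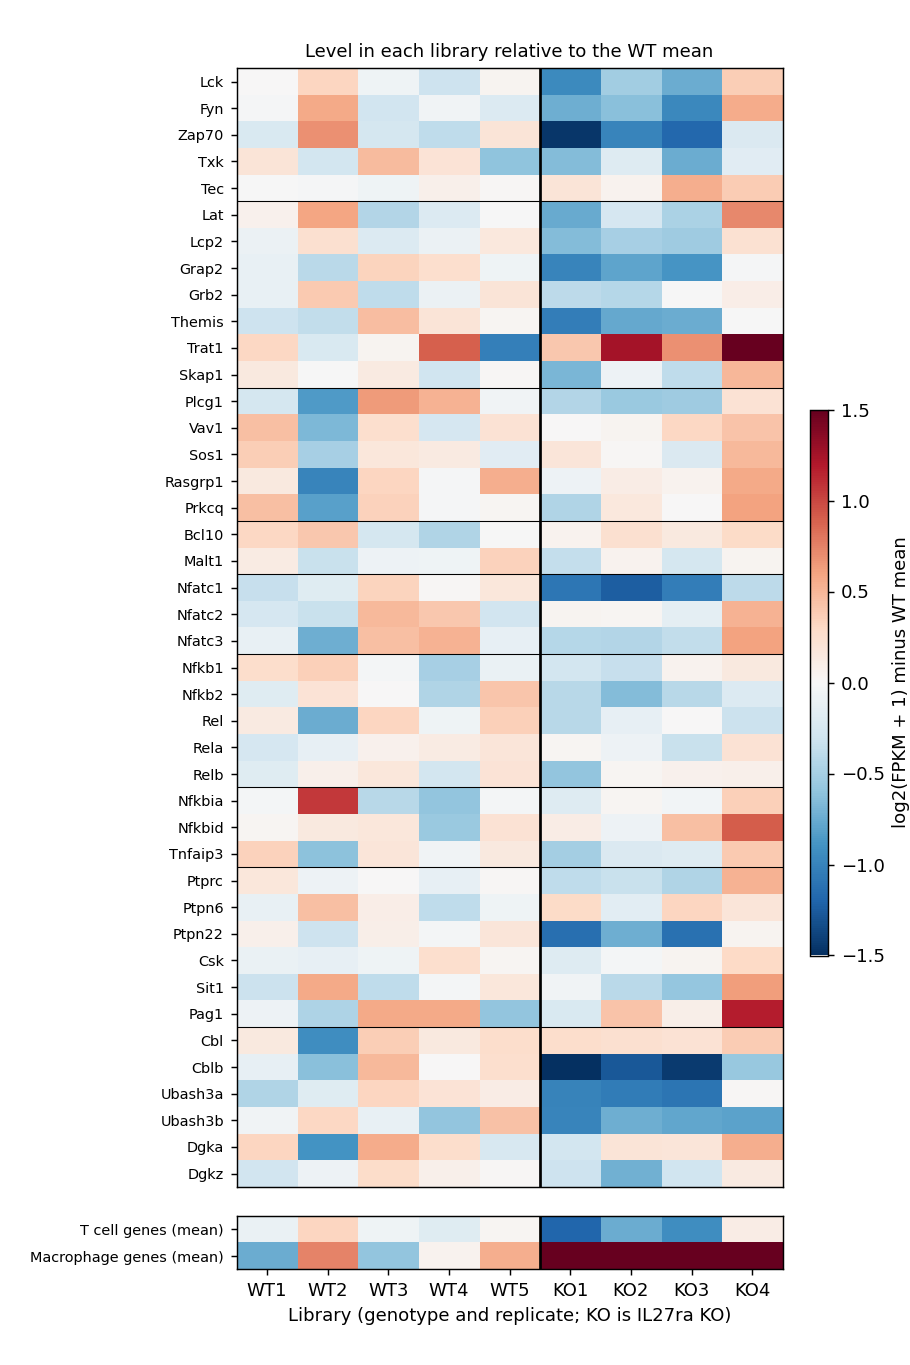
Level of each of the 42 members (rows, by role) in each library (columns), as log2(FPKM + 1) minus the WT mean; the lowest rows give the mean of the T cell and the macrophage genes on the same scale, and colours end at -1.5 and 1.5. In IL27ra KO replicates 1, 2 and 3, 32, 28 and 27 members are below the WT mean (blue), and in replicate 4 it is 9 members, which include Cblb, Nfatc1 and Ubash3b.

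Ratios within a library do not depend on how libraries are scaled. Of all 861 pairs of members, 14.6% had ratios whose groups did not overlap. That share comes from the members themselves. Pairs with genes outside the list were not counted, so whether the counts below exceed those of other genes is not known. Cblb was lower in IL27ra KO relative to 23 of the 41 other members in this sense, Nfatc1 relative to 18, Zap70 to 17, Ptpn22 to 14, Ubash3b to 12 and Grap2 to 11. In the other direction, Nfkbid and Trat1 were higher relative to 13 members each and Tec to 12. The pairs named next were chosen after their values were seen and are a description, with no test. Zap70 relative to Lck stood at 0.285, 0.436, 0.292, 0.320 and 0.376 in WT and at 0.230, 0.241, 0.243 and 0.223 in IL27ra KO. The lowest ratio was that of IL27ra KO replicate 4, where Zap70 was inside the WT range (38.3 FPKM) and Lck was the highest of all libraries (171 FPKM). The ratio of Cblb to Cbl was 3.25 to 5.28 in WT and 0.939, 1.32, 1.19 and 1.99 in IL27ra KO. The ratio of Nfatc1 to Nfatc2 was 1.85 to 3.499 in WT and 1.08, 0.965, 1.28 and 1.25 in IL27ra KO. By contrast, the ratio of Lck to Fyn was 7.77 to 11.3 in WT and 8.08 to 11.7 in IL27ra KO, and that of Ubash3b to Ubash3a 0.228 to 0.598 and 0.222 to 0.508, with overlapping groups. A ratio within a library shows unequal change and not which of the genes moved. Macrophage genes were higher in the same libraries (4.02 to 5.42 against 1.58 to 3.06), and their part in the ratios was not tested.

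**Figure D4:**
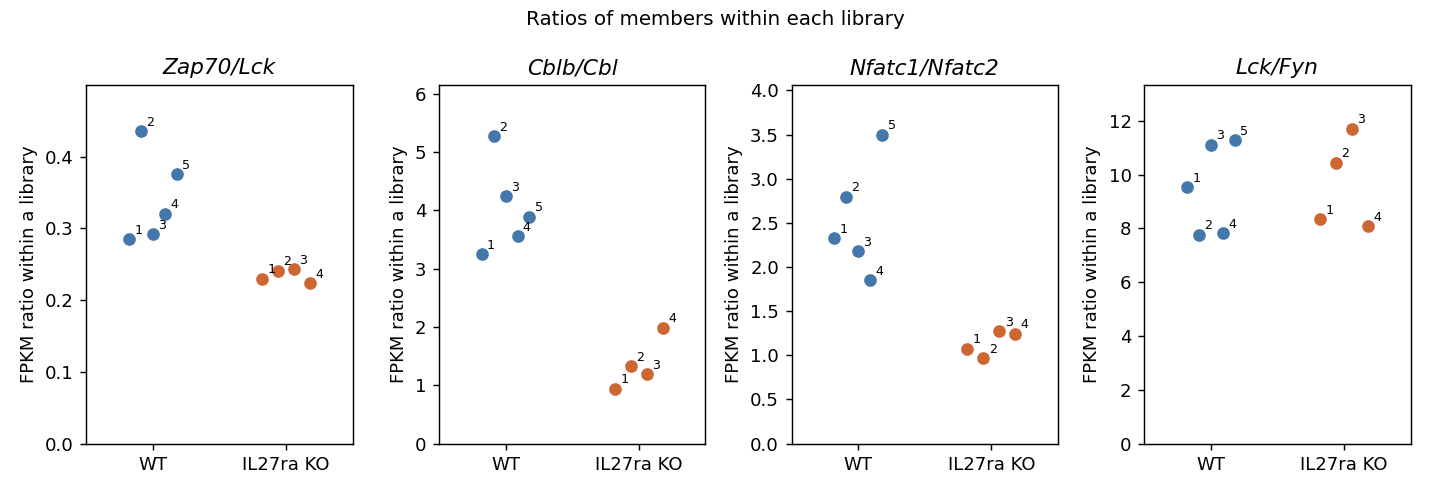
FPKM ratio of 2 members within each library (y axis, from 0), for WT and IL27ra KO, with replicate numbers beside the points. The ratios of Zap70 to Lck, Cblb to Cbl and Nfatc1 to Nfatc2 lie lower in all 4 IL27ra KO libraries than in any WT library, and those of Lck to Fyn overlap.

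When values were scaled so that the 13 T cell genes had the same mean level in every library, the order of the groups changed for many members. This scaling moved the median of all genes from 0.02 to 0.60, and 11% of all genes were then higher and 0.501% lower (limma, adjusted p under 0.05), against 3.13% and 1.11% as deposited. Of the members, 35 differences were positive, but 15 of 42 were above the new median of all genes, and the members' median was 0.50. Trat1 (1.54, limma adjusted p = 0.0078) and Nfkbid (0.99, limma adjusted p = 0.0372) passed as higher and 0 members passed as lower. Cblb, Nfatc1 and Ubash3b, at -0.59, -0.29 and -0.20, stayed below 0 and did not pass (limma, adjusted p = 0.153, 0.410 and 0.578). Ubash3b was at 7.08 to 13.5 in WT and at 10.4, 9.42, 10.3 and 4.93 in IL27ra KO replicates 1 to 4. Its replicate 4 alone was below the WT range. On this scale Lck was narrow within each group, at 115, 107, 107, 97.2 and 108 in WT and 125, 124, 122 and 129 in IL27ra KO, and did not pass (0.22; limma, adjusted p = 0.474). Zap70 was at 31.1 to 46.7 in WT and 28.6 to 29.9 in IL27ra KO, and did not pass (-0.29; limma, adjusted p = 0.378). It was the 1 member whose IL27ra KO values lay wholly below WT, beside 0.463% of all genes. Lck, Tec, Lat, Trat1, Skap1, Nfkbid, Ptprc and Pag1 were the 8 members wholly above, beside 8.68% of all genes. The scale takes the T cell genes as fixed, and 2 of them, Cd3e and Cd8a, had passed as lower as deposited.

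**Figure D5:**
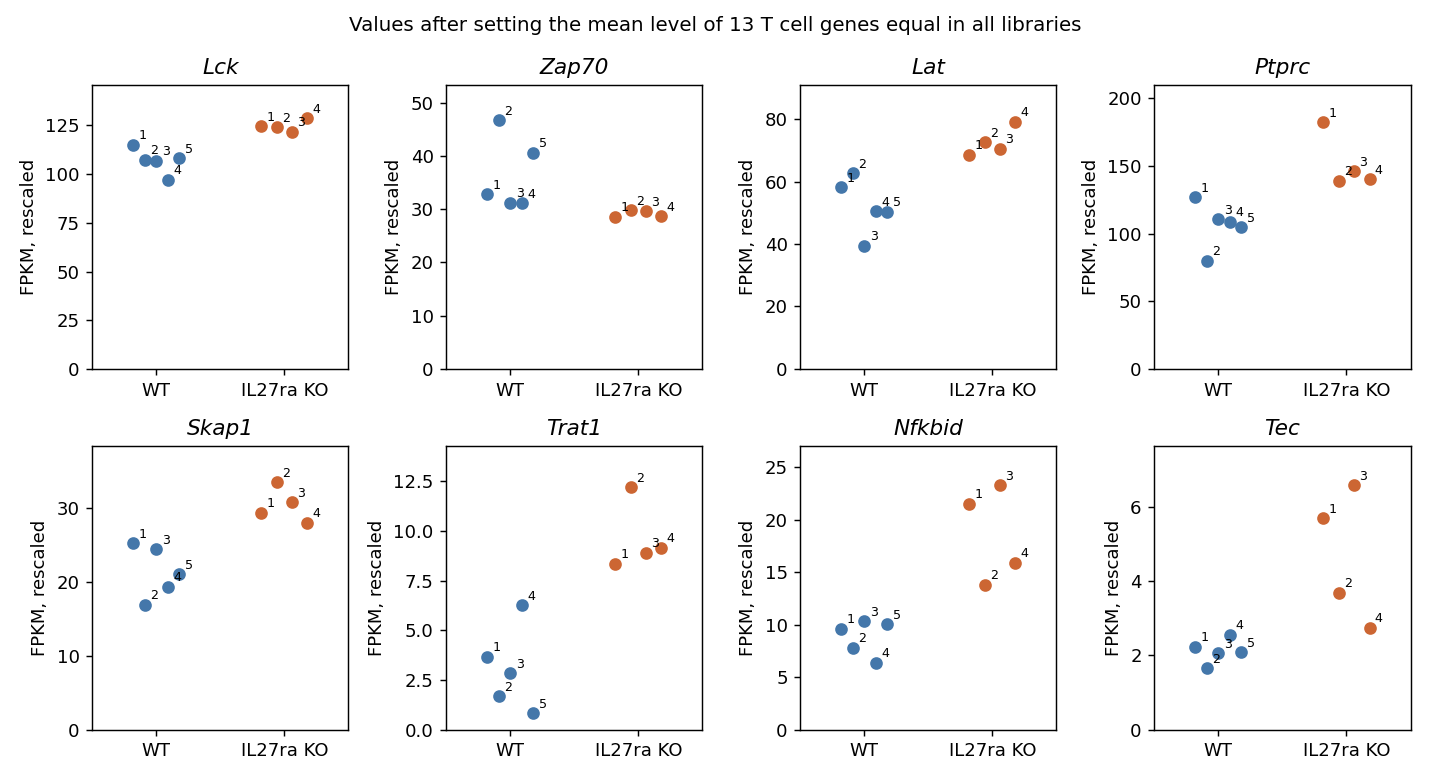
FPKM after the mean log2 level of 13 T cell genes was set equal in all libraries (y axis, from 0), for 8 members in WT and IL27ra KO, with replicate numbers beside the points. IL27ra KO libraries lie above WT for Lck, Lat, Ptprc, Skap1, Trat1, Nfkbid and Tec, and below WT for Zap70.

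A list of 63 other genes of receptor signalling had 61 tested, of which 5 rose (8.2%), 1 fell (1.64%) and 55 did not pass, beside 3.13% higher and 1.11% lower of all genes, with a median of 0.14 beside 0.02 (limma, adjusted p under 0.05). The gene that fell was Sh2d2a, which encodes the LCK-binding adaptor TSAd, from 70.2 ± 21.2 (SD, n = 5) to 29.0 ± 14.9 FPKM (SD, n = 4; -1.30, limma adjusted p = 0.0242), with IL27ra KO replicate 4 at 51.3 FPKM inside the WT range of 48.5 to 95.3 FPKM. Btk, Syk, Fgr and Lyn, which rose, are kinases known from myeloid and B cells. Btk rose from 0.326 ± 0.244 to 3.29 ± 1.16 FPKM and Syk from 0.602 ± 0.332 to 5.11 ± 2.62 FPKM, and Fgr and Lyn rose by 1.71 and 1.60 log2 units (limma, adjusted p = 0.0019, 0.0059, 0.0055 and 0.0281). For these 4 genes the lowest IL27ra KO value was in replicate 4, the IL27ra KO library with the lowest macrophage sum (1041 FPKM); the part of macrophage RNA was not tested. Of 18 tested genes that receptor stimulation induces early, 5 fell (27.8%), 0 rose and 13 did not pass, beside 1.11% lower and 3.13% higher of all genes, with a median of -0.49 beside 0.02 (limma, adjusted p under 0.05). Tnfrsf9, Tnfrsf4, Nr4a2, Xcl1 and Ccl3 were the genes that fell. The list did not move 1 way, with 12 differences negative and 6 positive. Nr4a1, Egr1 and Egr2 were among the positive ones, at 0.53, 0.56 and 0.65 (limma, adjusted p = 0.312, 0.276 and 0.289).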

How the data were processed

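The authors deposited 1 table of gene-level FPKM with TMM scaling between libraries, per the labels, for 5 WT and 4 IL27ra KO libraries. Per the submitters' processing notes, the authors name TopHat, RSEM and DESeq and the build mm9; which step each served is not given in the sources used here. Strandedness and read layout are likewise unknown. FPKM are not counts, so no count test was used. Library totals ran from 263888 to 431078 FPKM, and depth was estimated from low values of 2879 single-transcript genes in GENCODE M21; 68.1% to 72.3% of those values lay within 0.1 of a whole multiple of 1 fragment; this is an estimate only, since smaller spacings scored about as well, and the rule that takes the widest good spacing was set after seeing that. The values carry TMM scaling, so the estimate is of a scaled library size and not of the fragments sequenced. SMART-Seq 2 carries no molecular identifiers, so PCR copies add to the spread. Values were taken as log2(FPKM + 1), the 10374 genes averaging 1 FPKM or more were kept, and limma 3.58.1 (R 4.3.3; eBayes with trend) tested the groups, as IL27ra KO minus WT, with Benjamini-Hochberg adjustment over all genes tested and a threshold of 0.05. Fold changes of low genes are understated on this scale. The members, lists and the rule for named genes (all 42 members, Il27ra, and called genes of the wider pathway by smallest p) were chosen with earlier results of these data known. Members given in every library go beyond that rule. Lyn, the pairs in ratios and the dendritic cell and early response genes named were chosen after values were seen. 1 gene that the rule names is not reported here. On simulated data for IL27ra KO against WT with 200 of 10374 genes changed, 40.5% of changes of 1 log2 unit, 98.5% of 2 and 99.5% of 3 were recovered, with 2.41%, 7.08% and 3.4% false calls. Alternatives were other pseudocounts, filters, scalings, weights, a robust fit, the replicate block, a macrophage covariate, each library left out, and 2 added after seeing the data: WT replicate 2 and IL27ra KO replicate 4 both left out, and equal totals without Rn45s.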

Additional observations from a re-analysis of the deposited data

Results flagged for a closer look

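In 8 of 84 groups of a member's values, 1 library stood apart from the others by Dixon's test at the 95% level, where chance marks about 1 in 20. The test used log2(FPKM + 1), and the flags can differ on plain FPKM, the unit printed here. IL27ra KO replicate 4 was the highest of its group for Lcp2 (39.6 FPKM), Plcg1 (35.4 FPKM), Nfatc3 (27.6 FPKM), Ptprc (187 FPKM) and Ubash3a (29.6 FPKM). IL27ra KO replicate 1 was the lowest for Relb (5.53 FPKM), WT replicate 4 the lowest for Nfkbid (7 FPKM) and WT replicate 2 the lowest for Cbl (5.11 FPKM). Members share their libraries, so these are not independent.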

How the results depend on the processing

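The 3 lower and 0 higher members became 0 and 1 on rescaling to the same total and 0 and 2 on scaling to T cell genes, with medians of 0.17 and 0.50 against -0.14 (all genes: 525 higher and 65 lower, and 1144 and 52, against 325 and 115). The macrophage covariate left 0 lower members (median 0.27; 2 and 5 of all genes), weights for library quality gave 8 (median -0.25; 632 and 342), and leaving out WT replicate 2 and IL27ra KO replicate 4 together, added after seeing the data, gave 9 (median -0.32; 579 and 315). With Rn45s (23.9% to 53.8% of a library's total) left out of equal totals, added after seeing the data, 1 member, Zap70, was lower and 0 higher. The filter at 5 FPKM gave 155 higher and 64 lower genes, out of 5722 tested in place of 10374. Leaving out 1 library gave 0 to 6 lower members, medians of -0.29 to -0.059, and 168 to 453 genes higher and 59 to 186 lower; the fewest lower members came without IL27ra KO replicate 1, 2 or 3 and the most without replicate 4. The cause was not tested. Same-numbered libraries did not deviate together (r from -0.147 to 0.0027 across genes), and no IL27ra KO library correlated best with its own number, so the numbers are not treated as pairs; the replicate block gave 0 lower members and 217 higher and 56 lower genes. Of the members that passed in neither fit, 20 of 37 changed sign on scaling to T cell genes and 20 of 39 with the macrophage covariate, and 0 called members reversed. At this number of libraries changes of 1 log2 unit can go unseen.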
